A study of Mus musculus with 20 samples.

Results

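The genes described here build and run the contractile apparatus of smooth muscle, the muscle of the gut wall. The set was a list of 31 gene symbols, matched to probes by the gene name in the array files, with the brightest kept probe standing for each gene. Of these, 30 had a probe, Cacna1c having no match, and 28 passed the filter that kept 17077 of 27574 genes: its signal had to exceed background clearly throughout 1 group, in KO or in wild type. Kcnmb1 and Kcnma1, subunits of the large-conductance potassium channel of smooth muscle, did not pass. By role, the 28 tested genes comprise 9 of the thin filament, 4 of the thick filament and its control, 9 of the cytoskeleton and cell attachment, 5 of calcium handling and excitability, and 1 transcriptional coactivator.

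Smooth muscle contracts when calcium enters the cytoplasm, binds calmodulin and activates myosin light chain kinase, which phosphorylates the regulatory light chain so that myosin can pull on actin. Myosin phosphatase reverses the step. In the gut these cells form the circular and longitudinal layers of the outer wall and the thin muscularis mucosae, and serum response factor with its coactivator myocardin drives most of their contractile genes through CArG boxes. Spdef, by contrast, is known as an ETS-family transcription factor of secretory cells in the gut epithelium.

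Total RNA came from whole dissected colons or small intestines of Spdef knockout (KO) and wild type mice, pooled from 2 to 3 littermates; the labels give no strain. There were 3 pairs of a KO and a wild type pool from adult colon (postnatal day 30), 2 from adult small intestine, 2 from fetal colon (E18.5) and 3 from fetal small intestine. Each pair was hybridised in both dye orders, giving 20 two-colour arrays; ratios and levels of both orders were then averaged. Ratios are log2 of KO over wild type and levels are log2 intensities after normalisation; levels of different genes are not compared, because each probe has its own brightness. In RNA of a whole organ, fewer cells of a type and less RNA per cell cannot be told apart.

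Several libraries bear on the results. Spdef itself had log2 ratios of -4.09 to -1.20, below 0 on all 20 arrays. The pools labelled fetal colon pair 1 and fetal small intestine pair 3, which share a slide, went against their tissue labels in both genotypes. Hoxb13, a homeobox gene of the hindgut, was at 6.93 in KO and 6.99 in wild type in the pools labelled fetal colon pair 1, and at 11.61 in KO and 11.64 in wild type in those labelled fetal small intestine pair 3. Lct, the lactase of small intestinal enterocytes, was the reverse, at 16.42 in KO and 16.37 in wild type against 8.98 in KO and 8.76 in wild type. The labels were kept for grouping, and tissue and stage results are given with and without that slide. The first array of adult colon pair 1 also stood apart: 39.7% and 45.8% of its probes were well above background in its 2 channels, against 51.3% to 71.6% elsewhere, and the wild type levels of its 2 arrays correlated at r = 0.734 across genes, against 0.995 to 0.998 in the other pairs. Of the 28 smooth muscle genes, 11 read more than 1 log2 unit lower on it than on its dye swap in the wild type channel, with Flna at a difference of -5.59. Fetal small intestine pairs 1 and 2 did not differ beyond array noise and counted as 1 replicate (variance of their difference 0.844 times that expected from array noise, against 1.43 to 7.60 times between other pairs of a group), which leaves 9 replicates. Nothing says that the pools of a group came from separate litters, so p-values measure only the spread between these pools.

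In adult colon the contractile genes as a group read lower in KO pools, by a small amount. Of the 28, 27 had a negative mean ratio and the median was -0.27, against 50.8% negative and a median of 0.00 over all 17077 genes. In the limma fit, 4 of 28 fell at an adjusted p under 0.05 and none rose, where 5.65% of all genes fell: Cald1, Pgm5, Pln and Casq2. An unadjusted p under 0.05 was found for 19 of the 28, in a comparison where 4713 of all 17077 genes had one. A negative ratio in all 3 pairs was found for 23 of 28 genes, against 24.9% of all genes. The list was chosen with earlier results of these data known. Its shares therefore describe these genes and do not test them as a set. The medians over the 28 genes were -0.19, -0.44 and -0.17 in pairs 1, 2 and 3, so pair 2 carried the largest differences.

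**Figure D1:**
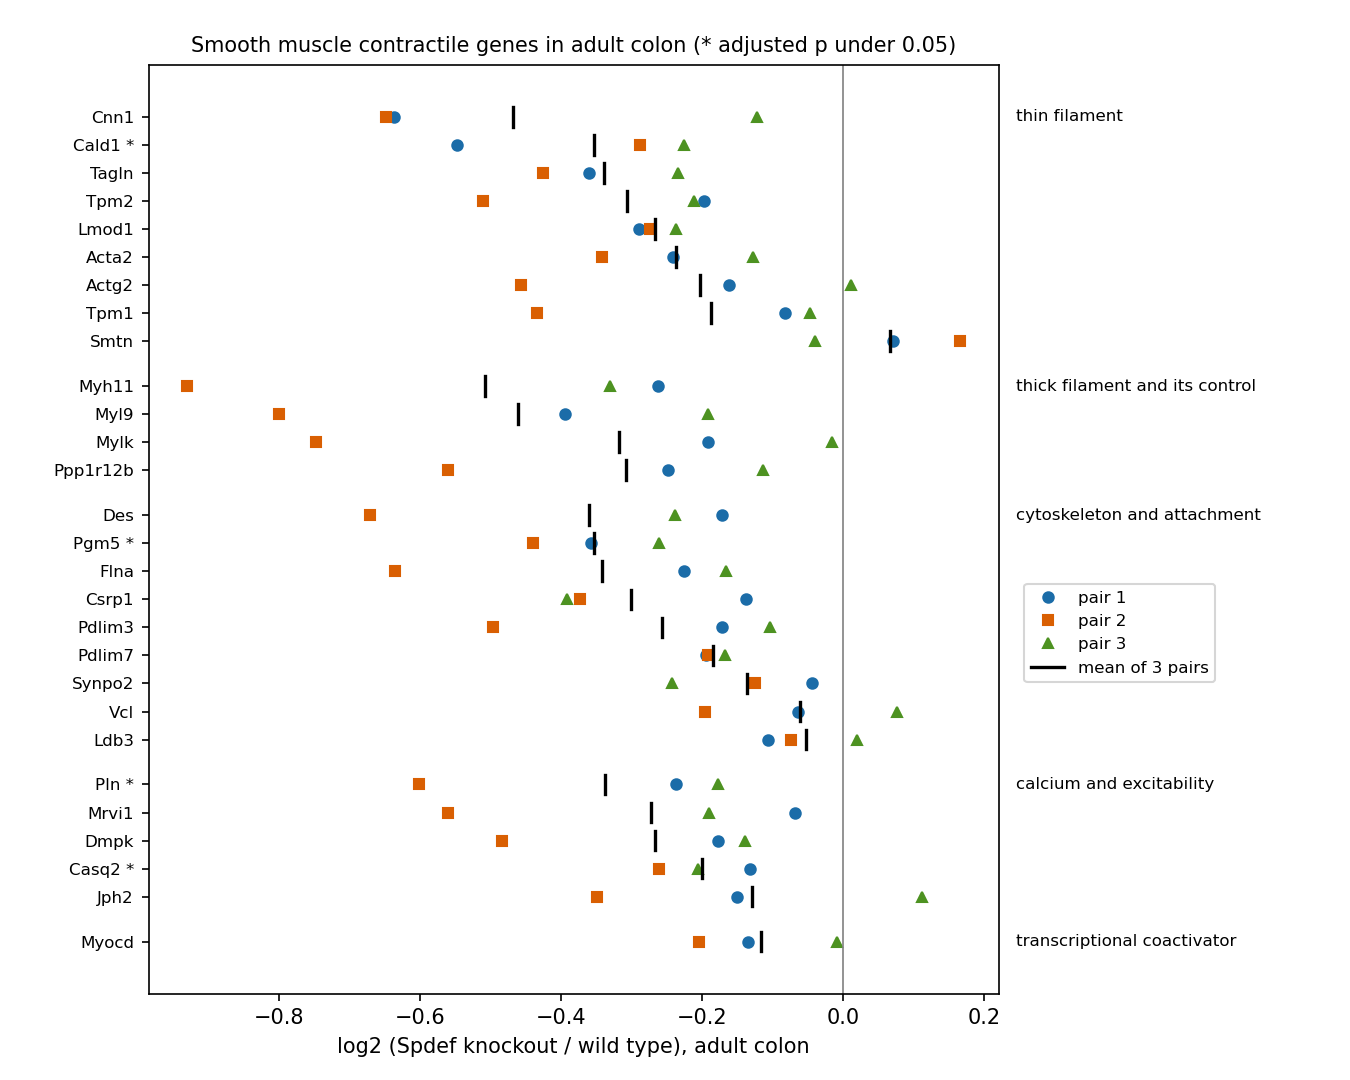
Log2 ratio of Spdef knockout over wild type in adult colon for each of the 28 tested smooth muscle genes, grouped by role; points are the 3 pairs of pools, bars their mean, and an asterisk marks an adjusted p under 0.05. Nearly all points lie left of 0, the pair 2 squares often the farthest, and Smtn is the gene whose mean lies right of it.

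Among thin filament genes, Cald1 encodes caldesmon, which binds actin and holds back its contact with myosin. Its level in KO pools was 9.75, 8.87 and 9.35 in pairs 1, 2 and 3, against 10.29, 9.16 and 9.58 in wild type pools. Each KO pool lay below its wild type partner, although the 2 ranges overlapped. The fall was -0.35 ± 0.08 (limma standard error, adjusted p = 0.0391), a 1.28-fold decrease, and the 2 arrays of pair 1 gave unlike ratios of -0.14 and -0.95. The probe lies at chr6:34703991-34704050 of build mm8, and the files give no exon annotation. The other kept probe of Cald1 had ratios of -0.44, -0.71 and 0.25 in pairs 1, 2 and 3, with pair 3 above 0.

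The smooth muscle actins did not pass the test. Acta2, the alpha actin of vascular and visceral smooth muscle, read 15.97, 15.41 and 16.10 in KO pools against 16.22, 15.76 and 16.23 in wild type pools, a difference of -0.24 ± 0.10 (adjusted p = 0.17). Actg2, the gamma actin of gut muscle, read 13.76, 13.00 and 14.01 in KO pools against 13.92, 13.45 and 14.00 in wild type pools, with pair 3 level. Tagln, which encodes the actin-binding protein transgelin, had ratios of -0.36, -0.43 and -0.23 and missed the threshold narrowly (-0.34 ± 0.09, adjusted p = 0.0520). Cnn1, calponin, had ratios of -0.64, -0.65 and -0.12 (mean -0.47 ± 0.15, adjusted p = 0.0824), pair 3 standing apart from the others. Tpm2 and Tpm1, which encode tropomyosins along the actin filament, and Lmod1, leiomodin, an actin filament nucleator, averaged -0.31, -0.19 and -0.27. Smtn, smoothelin, a marker of contractile smooth muscle, was the exception, at 0.07, 0.17 and -0.04 in the 3 pairs.

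All 4 genes of the thick filament group had negative ratios in each pair, and none passed the threshold. Myh11 encodes the smooth muscle myosin heavy chain; KO pools were at 12.53, 12.91 and 14.02 against 12.79, 13.84 and 14.35 in wild type pools, a mean difference of -0.51 ± 0.17 (adjusted p = 0.0961), the lowest mean of the 28 genes. Its ratio in pair 2, -0.93, was more than 2 times that in either other pair. Myl9, the regulatory light chain, had KO levels of 16.00, 15.30 and 15.94 against wild type levels of 16.40, 16.10 and 16.13 (-0.46 ± 0.13, adjusted p = 0.0577). Mylk, its kinase, had ratios of -0.19, -0.75 and -0.02, and Ppp1r12b, a targeting subunit of myosin phosphatase, -0.25, -0.56 and -0.11. The kinase and the phosphatase subunit had means of -0.32 and -0.31, but the 2 other kept probes of Ppp1r12b averaged 0.10 and 0.03.

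In the cytoskeleton and attachment group, Pgm5 fell in the KO pools. It encodes aciculin, a phosphoglucomutase-like protein of adherens-type junctions in muscle, and its probe lies at chr19:24750453-24750512 (mm8). KO levels were 12.49, 11.68 and 12.19 against wild type levels of 12.85, 12.12 and 12.45, with a ratio below 0 on each of the 6 arrays (-0.35 ± 0.08, adjusted p = 0.0399, 1.28-fold). Des, the muscle intermediate filament desmin, had ratios of -0.17, -0.67 and -0.24, and Flna, the actin cross-linker filamin A, -0.23, -0.64 and -0.17. Csrp1, a LIM protein of smooth muscle, had its lowest ratio in pair 3 at -0.39. Pdlim3 and Pdlim7, PDZ and LIM domain proteins of actin bundles, averaged -0.26 and -0.18, and Synpo2, an actin-bundling protein, -0.14. Vcl, vinculin of cell adhesions, and Ldb3, a PDZ and LIM domain protein of the Z-disc, were nearest to 0 at -0.06 ± 0.10 and -0.05 ± 0.08, each with 1 pair above 0.

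Pln and Casq2 fell among the calcium genes. Pln encodes phospholamban, which restrains the calcium pump of the sarcoplasmic reticulum; it read 7.99, 7.32 and 7.75 in KO pools against 8.23, 7.92 and 7.93 in wild type pools (-0.34 ± 0.08, adjusted p = 0.0345; chr10:53033553-53033612, mm8). Casq2, calsequestrin, a calcium store protein, read 7.29, 7.47 and 7.47 against 7.42, 7.73 and 7.67 in wild type pools (-0.20 ± 0.04, adjusted p = 0.0306; chr3:102274965-102275025, mm8). In adult colon Casq2 was well above background on 5 of 6 arrays in each genotype. For Casq2 the KO and wild type pools differed by 1.15-fold, with all 6 arrays below 0. Mrvi1, the substrate of cGMP-dependent kinase on the calcium store, and Dmpk, a muscle kinase, averaged -0.27 each, and Jph2, which tethers the calcium store to the cell membrane, -0.13 with pair 3 at 0.11. Myocd, which encodes myocardin itself, had ratios of -0.14, -0.20 and -0.01 (-0.12 ± 0.08, adjusted p = 0.381).

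Which of these genes passed depended on the libraries in the fit, while the median of the 28 stayed negative in adult colon in all 26 alternatives run. Without the first array of pair 1 the median was -0.31 and 5 of 28 fell (Casq2, Dmpk, Pgm5, Pln and Tagln), where 6.53% of all genes did; 1 array then stands for pair 1. Without the slide of the mismatched fetal pools, which changes only the pooled estimate of the spread, 3 fell (Lmod1, Pgm5 and Tagln), where 2.92% of all genes did. Without both, 4 fell (Csrp1, Lmod1, Pgm5 and Tagln), where 3.28% did. Without pair 2 no gene passed and the median was -0.18. Pgm5 alone was called in all of the first 3 of these fits and in the fit of all libraries. For 16 genes 26 further probes were kept, and 21 of the 26 had a mean ratio below 0 in adult colon. Several of these were close to 0, such as probes of Flna at -0.005, Vcl at -0.002 and Jph2 at -0.02. A further probe each of Acta2 and Tpm1 averaged 0.01 and 0.04, while the remaining probes of these genes averaged below 0.

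Genes near the contractile apparatus, taken from 3 further lists, had medians nearer to 0. Of 49 other contractile and attachment genes tested, 7 fell and 1 rose, with a median of -0.13, where 5.65% of all genes fell and 3.92% rose. Speg, a muscle kinase related to Mylk, fell by 0.36 (adjusted p = 0.0110), Cav1, the caveolin of membrane pits, by 0.38 (adjusted p = 0.0159), Cpxm2 by 0.30 (adjusted p = 0.0123) and Myom1, a myomesin of the sarcomere, by 0.34 (adjusted p = 0.0191). Actn4, a non-muscle actinin, was the gene that rose, by 0.23. Of 29 genes of contraction signalling, 3 fell and the median was -0.07. Itpr1, the calcium release channel of the endoplasmic reticulum, fell by 0.76 (adjusted p = 0.00825), more than any of the 28 contractile genes, with Gucy1a1, a subunit of the nitric oxide receptor, and Ryr2, the ryanodine receptor, at -0.37 and -0.21. Of 17 genes around serum response factor, none passed, 2 had an unadjusted p under 0.05, and the median was -0.05.

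Promoter sequence was read for 27 of the 31 genes, those with an entry in the RefSeq table of build GRCm38.p6; Actg2, Myh11, Myocd and Tagln were not matched. A CArG box, CC and GG around 6 bases that are each A or T, which reads alike on both strands, stood in the 250 bases before the start site of 3 of the 27 (Myl9, Vcl and Ldb3), against 1.62% of 27025 genes. A CArG-like form with 1 G or C among those 6 bases was found in 5 of 27 (Acta2, Myl9, Cacna1c, Pdlim3 and Jph2), against 8.33% of all genes, and no match of one form overlapped one of the other. The 3 windows below are shown because they hold the boxes of an actin, a myosin light chain and an attachment protein whose ratios in adult colon were -0.24, -0.46 and -0.06. Capitals mark the CArG or CArG-like boxes. Acta2 lies at chr19:34255374-34255623 on the minus strand, Myl9 at chr2:156775214-156775463 and Vcl at chr14:20929148-20929397 on the plus strand.
Acta2: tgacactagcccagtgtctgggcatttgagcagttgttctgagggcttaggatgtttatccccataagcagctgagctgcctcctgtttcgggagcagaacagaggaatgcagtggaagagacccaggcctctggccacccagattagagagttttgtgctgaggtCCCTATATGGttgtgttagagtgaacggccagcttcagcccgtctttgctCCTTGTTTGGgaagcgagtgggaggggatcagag
Myl9: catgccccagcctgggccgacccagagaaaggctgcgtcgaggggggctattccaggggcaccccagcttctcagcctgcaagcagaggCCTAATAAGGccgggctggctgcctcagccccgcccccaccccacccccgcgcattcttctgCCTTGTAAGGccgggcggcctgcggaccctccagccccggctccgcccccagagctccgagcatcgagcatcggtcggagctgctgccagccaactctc
Vcl: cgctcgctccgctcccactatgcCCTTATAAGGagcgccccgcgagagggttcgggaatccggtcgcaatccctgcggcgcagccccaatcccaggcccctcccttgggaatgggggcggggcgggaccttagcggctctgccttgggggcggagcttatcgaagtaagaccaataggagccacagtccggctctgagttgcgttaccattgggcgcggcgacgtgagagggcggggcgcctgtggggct
Acta2 holds 2 CArG-like boxes, 84 and 34 bases before the start. Myl9 holds a CArG box at 161 and a CArG-like box at 99 bases before it, and Vcl a CArG box at 227 bases.

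Several markers of nerve and stroma also fell in adult colon KO pools, and general epithelial markers did not. Of 17 enteric neuron genes, 7 fell, where 5.65% of all genes fell, and all 17 had a negative mean, with a median of -0.17. The list medians were -0.14, -0.32 and -0.11 in pairs 1, 2 and 3. Nos1, the neuronal nitric oxide synthase, fell by 0.44 (adjusted p = 0.0301), Elavl4 by 0.40 (adjusted p = 0.0185), Vip, a relaxing neuropeptide, by 0.35 (adjusted p = 0.0104) and Syt1 by 0.33 (adjusted p = 0.00876). Among enteric glia genes, S100b, a calcium-binding protein of glia, fell by 0.38 (adjusted p = 0.00427). Fibroblast and matrix genes had 3 of 20 lower (Postn, Ogn and Mfap5), a median of -0.19 and list medians of -0.16, -0.25 and -0.22. Endothelial genes had none of 12 past the threshold and a median of -0.15. An unadjusted p under 0.05 was found for 4 of them, near the share of all genes given above for adult colon. Pericyte genes had 1 of 6 past the threshold, Rgs5, which fell by 0.67.

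Of 22 general epithelial genes, 2 rose, where 3.92% of all genes rose, the keratins Krt19 by 0.30 (adjusted p = 0.0255) and Krt8 by 0.29 (adjusted p = 0.0145), and 19 had a positive mean. The list medians were 0.11, 0.02 and 0.14 in pairs 1, 2 and 3. The colonocyte list had medians below 0, at -0.30, -0.45 and -0.13. Its only genes past the threshold were the sodium channel subunits Scnn1b and Scnn1g, where 5.65% of all genes fell. They fell by 0.60 (adjusted p = 0.00300) and 0.64 (adjusted p = 0.00316). Car1 of that list read 14.91, 16.12 and 17.01 in KO pools against 15.00, 17.11 and 16.35 in wild type pools, so its pair 3 rose. Of 6 colon identity genes 2 fell, the homeobox genes Hoxd13 by 0.44 (adjusted p = 0.0124) and Hoxd10 by 0.37 (adjusted p = 0.0485), with list medians of -0.11, -0.35 and -0.19 in the 3 pairs. The part of these in the lower contractile genes was not tested. All 11 leukocyte genes had a positive mean, with Itgax past the threshold. None of 6 adipocyte genes passed, 0 had an unadjusted p under 0.05, and they had list medians of -0.04, -0.63 and 0.35.

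**Figure D2:**
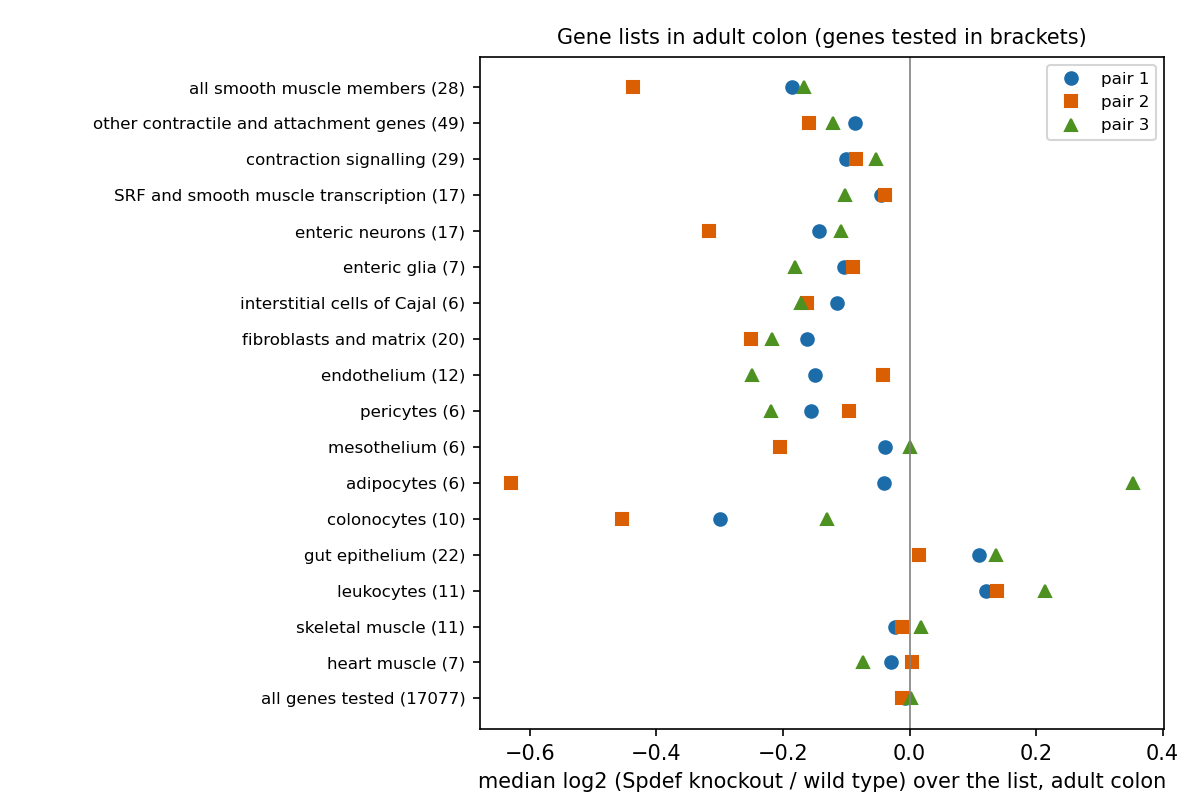
Median log2 ratio of Spdef knockout over wild type for each gene list in the 3 adult colon pairs, with the number of genes tested in brackets. Smooth muscle, nerve, glia, fibroblast, endothelium, pericyte and colonocyte lists lie left of 0, general epithelial and leukocyte lists right of it. Pair 2 gives the lowest median for the contractile genes, neurons, fibroblasts, colonocytes and adipocytes.

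Summed over a list on the linear scale, the contractile genes reached 362722 to 513561 intensity units in adult colon KO pools against 469346 to 575005 in wild type pools. Enteric neuron genes summed to 7136 to 10582 in KO pools against 9118 to 12558 in wild type pools, with overlap. Fibroblast genes summed to 101058 to 118404 in KO pools against 121171 to 148926 in wild type pools, without overlap. General epithelial genes summed to 956796 to 1115860 in KO pools against 839699 to 1062010 in wild type pools, with overlap. Markers never above background in adult colon included Ret of the neuron list, Gfap and Cdh19 of the glia list, and Myh4, Pvalb and Casq1 of the skeletal muscle list. No marker of the fibroblast or epithelial list was. The part of wall, nerve, stroma and mucosa shares in the lower contractile genes was not tested, since no sample here separates the layers.

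In adult small intestine none of 28 passed in the limma fit, where 0.398% of all genes did in either direction, and 2 had an unadjusted p under 0.05. The median was -0.06, with pair medians of -0.05 and -0.10, and the means ran from -0.32 for Ppp1r12b to 0.18 for Csrp1. Of the 28, 14 were lower in both pairs, against 34.5% of all genes, and 5 were higher in both (Actg2, Des, Smtn, Synpo2 and Csrp1), against 26.2%. Des, for example, read 10.73 and 10.52 in KO pools against 10.42 and 10.50 in wild type pools.

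In fetal colon the ratios leaned the other way. None of 28 passed, where 0.287% of all genes did, and 1 had an unadjusted p under 0.05. The median was 0.12 and 19 of 28 were higher in both pairs, against 28.9% of all genes, but the pool labelled fetal colon pair 1 had a median of 0.22 and pair 2 one of 0.04. Pair 1 carries a small intestinal profile, so without it 1 pair remained. Myocd had the highest mean, with KO levels of 9.11 and 11.08 against 8.76 and 10.49 in wild type pools. Each KO pool lay above its partner, by 0.35 and 0.59.

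Fetal small intestine was split by pool. None of 28 passed, where 0.433% of all genes did, and 1 had an unadjusted p under 0.05. Pairs 1 and 2, which count as 1 replicate, had medians of -0.25 and -0.25, and pair 3, which carries a colonic profile, 0.18. Acta2 shows the split, at 14.22, 14.26 and 16.66 in the 3 KO pools against 14.52, 14.58 and 16.40 in their wild type partners. The median over the group was -0.04, and without the slide of pair 3 it was -0.25. Fibroblast genes had list medians of -0.30, -0.31 and 0.27 in the same pairs, neurons -0.08, -0.10 and 0.13, and general epithelial genes -0.04, -0.07 and -0.15; their part in the pattern was not tested.

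**Figure D3:**
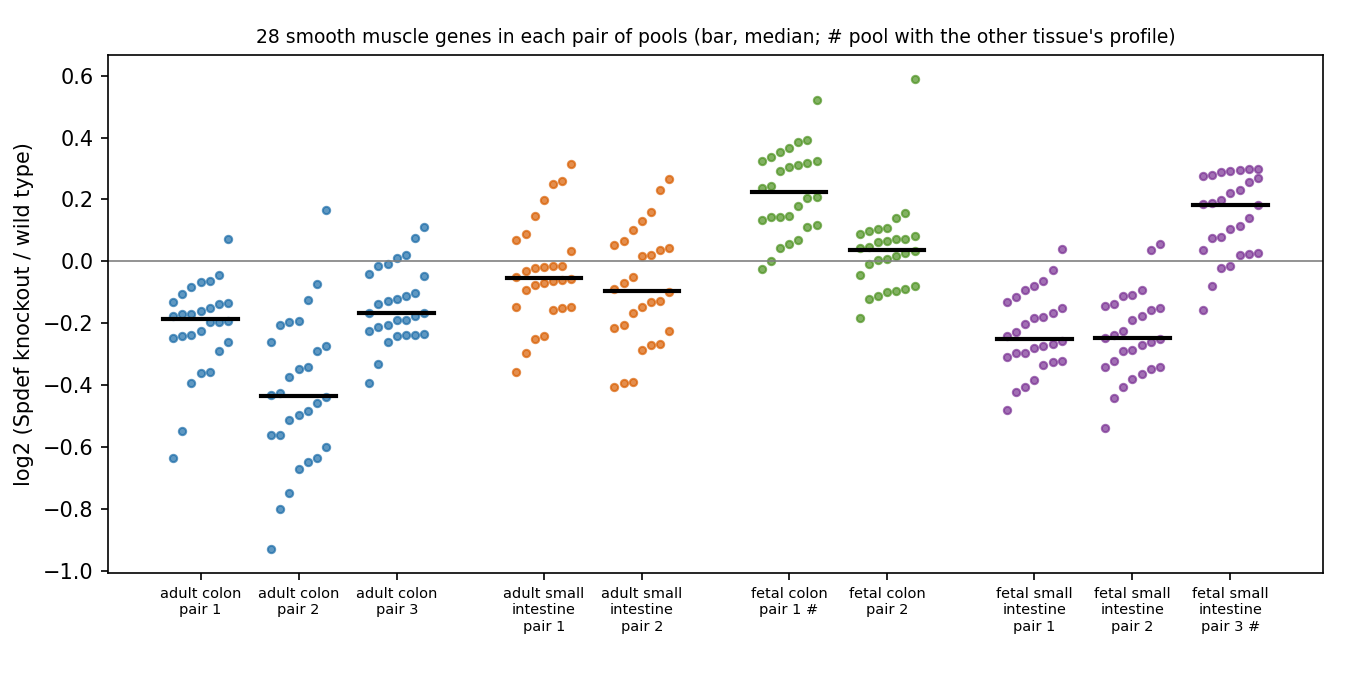
Log2 ratio of Spdef knockout over wild type for the 28 genes in each of the 10 pairs of pools; points are genes, bars the median, and # marks the pairs that carry the other tissue's profile. Adult colon medians lie at -0.19, -0.44 and -0.17, and the fetal medians lie on both sides of 0, from -0.25 to 0.22.

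The KO effect was not shown to differ between tissues or stages for any single gene. For adult colon minus adult small intestine, none of 28 passed (0.158% of all genes did), the smallest adjusted p was 0.434, 4 had an unadjusted p under 0.05 and the median difference was -0.17. On the slide that held adult colon pair 2 and adult small intestine pair 2, the median difference was -0.33 and 27 of 28 were lower in colon, against 52.5% of all genes. For adult colon minus fetal colon, none passed (0.644% of all genes did), the smallest adjusted p was 0.0937, and 19 had an unadjusted p under 0.05, as did 2457 of all 17077 genes, with a median of -0.42. On the slide of adult colon pair 3 and fetal colon pair 2 that median was -0.19, with 25 of 28 lower in adult colon against 50.3% of all genes. A negative ratio in all adult colon pairs and a positive one in both fetal colon pairs was found for 16 of 28 genes, against 6.26% of all genes; without the slide of the mismatched pools the adult minus fetal median was -0.30. For adult minus fetal small intestine, none passed (0.246% of all genes did), 1 had an unadjusted p under 0.05 and the median was -0.04. Averaged over the 4 groups the median KO effect was -0.07, with none of 28 past the threshold, 2 at an unadjusted p under 0.05, and 1.79% of all genes called.

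Most contractile genes read higher in wild type adult colon than in wild type adult small intestine. Giving adult colon pool 1 from its dye-swap array alone, 24 of 28 genes were higher in every adult colon pool than in every adult small intestine pool, against 30.3% of all genes. With pool 1 averaged over both of its arrays it was 18 of 28, against 26.5% of all genes. In KO pools, with pool 1 from its dye swap, it held for 22 of 28, against 28.5% of all genes. In wild type pools Tagln read 16.30, 16.13 and 16.40 in adult colon against 14.49 and 13.93 in adult small intestine. Cnn1 read 16.98, 16.73 and 16.52 in adult colon against 14.68 and 14.22 in adult small intestine. Des read 12.05, 12.31 and 12.64 in adult colon against 10.42 and 10.50 in adult small intestine. Each of these pools of colon lay above each of small intestine by more than 1 log2 unit.

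The test of that difference depended on the libraries. In the fit of all libraries none of 28 passed, where 2.99% of all genes did, with a median of 0.94, a smallest adjusted p of 0.0569 and 11 at an unadjusted p under 0.05. The mismatched fetal pools enter the pooled estimate of the spread there. Without their slide, 10 were higher and 1 lower, against 4.25% and 4.3% of all genes. Without that slide and the first array of adult colon pair 1, 24 were higher in colon and 1 lower, against 15.2% and 12.8% of all genes, and the median was 0.91. In that fit Cnn1 differed by 2.29 ± 0.19 (adjusted p = 0.00036), Tagln by 2.07 ± 0.19 (adjusted p = 0.0005), Actg2 by 1.99 ± 0.21 (adjusted p = 0.00103) and Des by 1.87 ± 0.18 (adjusted p = 0.000642). On the slide shared by adult colon pair 2 and adult small intestine pair 2, 26 of 28 were higher in colon, against 55.4% of all genes. The median there was 0.97.

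A few genes did not follow this order. Ldb3 read 8.11, 7.87 and 7.88 in adult colon against 9.66 and 9.28 in adult small intestine, and was lower in colon in the fit without the slide and the array (-1.52 ± 0.15, adjusted p = 0.000742). Casq2 read 7.79, 7.73 and 7.67 in adult colon against 7.95 and 7.82 in adult small intestine, a difference of -0.15 ± 0.10 (adjusted p = 0.318). Mylk, at 14.36, 14.53 and 14.47 in adult colon against 14.51 and 14.38 in adult small intestine, overlapped between the tissues (0.00 ± 0.11, adjusted p = 0.985), unlike the myosin light chain it phosphorylates: Myl9 was higher in colon by 0.81 ± 0.12 (adjusted p = 0.00363).

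**Figure D4:**
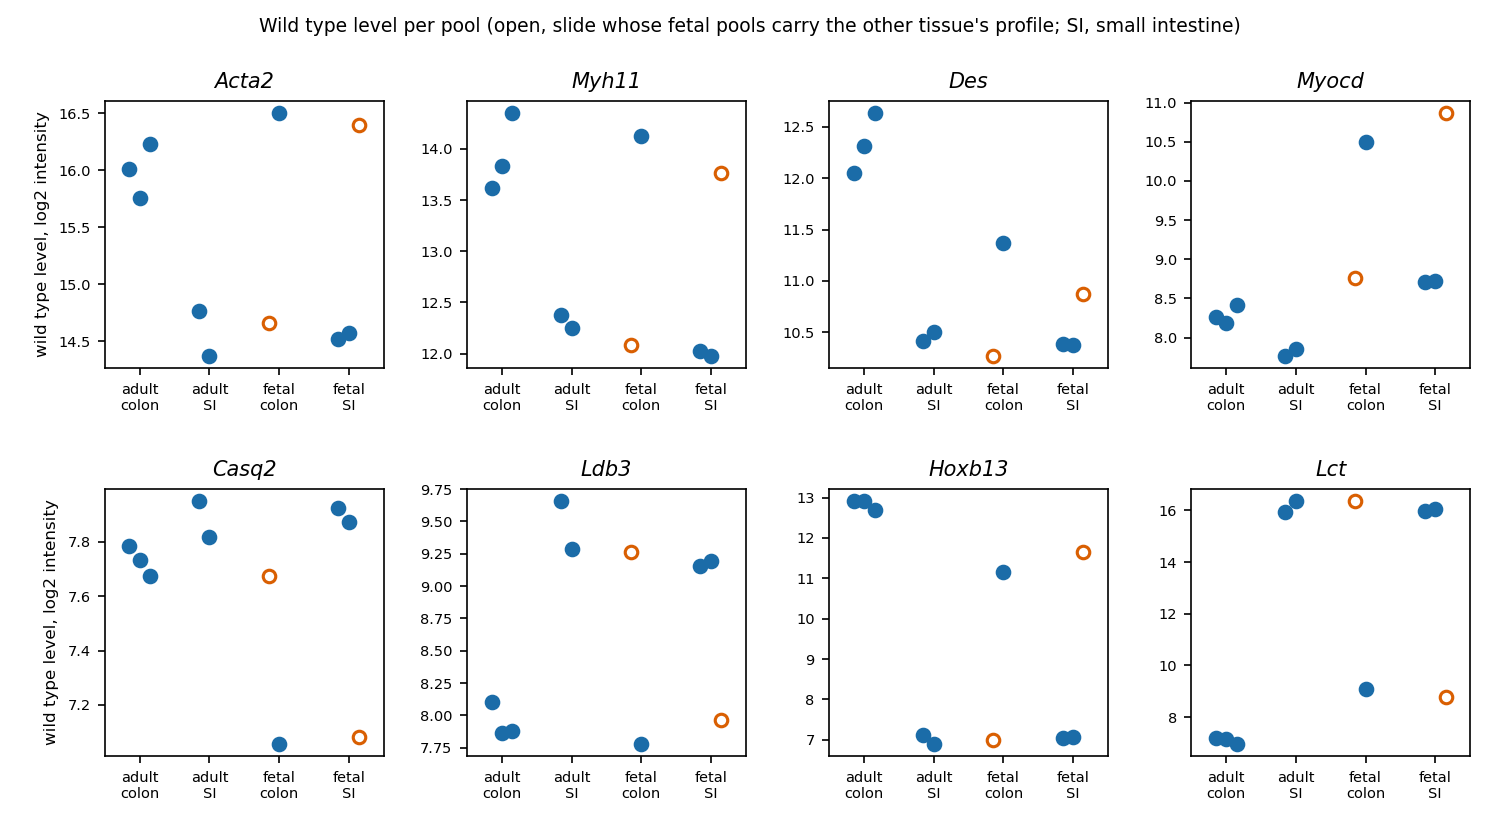
Wild type level in log2 intensity per pool for 6 smooth muscle genes and for Hoxb13 and Lct, which mark colon and small intestine; adult colon pool 1 is from its dye-swap array, and open symbols are the 2 pools of the slide that goes against its labels. The open fetal colon pool lies with the fetal small intestine pools, and the open fetal small intestine pool with the remaining fetal colon pool, as Hoxb13 and Lct do; Des of the open fetal small intestine pool lies about midway.

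At the fetal stage, with the labels as given, none of 28 passed in the limma fit, none had an unadjusted p under 0.05, 0.00586% of all genes passed, and the median of colon minus small intestine was -0.03. Most contractile gene levels lay with pools of the like profile and not of the like label. On the mismatched slide, 2 of 28 genes were higher in the wild type pool labelled colon, against 45.9% of all genes, with a median difference of -1.46. Synpo2 of the pool labelled fetal small intestine pair 3, at 9.11, instead lay between pools 1 and 2 of that label, at 9.17 and 9.07. Des of that pool lay about midway. Wild type Acta2 read 14.66 and 16.50 in fetal colon pools 1 and 2, against 14.52, 14.58 and 16.40 in fetal small intestine pools 1, 2 and 3. Without the mismatched slide, 1 fetal colon pool stood against 1 small intestine replicate, whose spread is taken from the other groups. The median was then 1.33 and 1 gene, Tpm2, was higher in colon, where 0.779% of all genes were. Without the first array of adult colon pair 1 as well, 19 were higher in colon and 2 lower (Casq2 and Ldb3), against 12.3% and 12.3% of all genes. Tpm2 then differed by 2.19 ± 0.20 (adjusted p = 0.00125), Myh11 by 2.12 ± 0.34 (adjusted p = 0.00726) and Mylk by 0.85 ± 0.17 (adjusted p = 0.0141).

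Between stages, the wild type level of Myocd was 8.27, 8.19 and 8.42 in adult colon pools against 8.76 and 10.49 in fetal colon pools, and 7.76 and 7.85 in adult small intestine against 8.71, 8.72 and 10.87 in fetal small intestine. Adult colon pool 1 is given here from its dye-swap array; averaged over both arrays it read 8.75, above fetal small intestine pools 1 and 2. In the fit of all libraries the stage difference of Myocd did not pass in either tissue. Without the slide and the array, 1 fetal colon pool and 1 fetal small intestine replicate remained, whose spread is taken from the other groups. The adult minus fetal difference of Myocd was then -2.20 in colon and -0.91 in small intestine.

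For adult minus fetal colon the fit of all libraries called 1 of 28, Pln, higher in adults, where 5.87% of all genes were, and the median was 0.43. Pln and Casq2 passed the filter on low values only through adult groups, so their higher adult levels are a description and support nothing. For adult minus fetal small intestine it called none of 28, 4 having an unadjusted p under 0.05, where 8.44% of all genes passed, and the median was -0.46. Without the slide and the array these medians were -0.13 and 0.11, again with 1 fetal replicate in each tissue. The fetal spread is then taken from the other groups, so calls in this fit do not reflect differences between fetal pools. In that fit 4 genes were higher in adult than in fetal colon (Casq2, Des, Pln and Synpo2) and 6 were lower (Jph2, Myl9, Mylk, Myocd, Pdlim7 and Pgm5), 10 of 28 in all, against 38.8% of all genes. Des differed by 0.97 and Jph2 by -1.04. For small intestine 1 was higher in adults (Ppp1r12b) and 3 lower (Csrp1, Myocd and Pdlim7), against 15.3% and 18.6% of all genes. On the slide shared by adult colon pair 3 and fetal colon pair 2, 12 of 28 were higher in the adult pool, with a median of -0.09. That count is near the share of all genes, 46.6%.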

How the data were processed

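Per the submitters' processing notes, the authors extracted the arrays with Agilent Feature Extraction 9.5.3; the deposited mean and background signals are linear intensity values. Each spot's deposited log ratio is log10 of red over green, per the file headers. The deposited series table holds log2 ratios and was used as an alternative only.

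Starting from mean signals, background was corrected in limma 3.58.1 under R 4.3.3 with normexp and an offset of 50. Loess was applied within arrays, with control spots at weight 0, and outlier spots were dropped. Spots of a probe and dye swaps were averaged; levels had Aquantile scaling between arrays. One fit with a term per group held 9 replicates (5 residual degrees of freedom); p-values were two-sided, adjusted by Benjamini-Hochberg across the 17077 genes and read at 0.05. Steps were tested on simulated data. Alternatives covered background, scaling, filter, probe choice, blocks and left-out replicates. The number of arrays limits precision. No column of the series table was left unused. Members and lists were chosen with earlier results of these data known. All members are named, with up to 4 passing genes per other list by smallest adjusted p; other genes named where few passed were chosen after their values were seen. Leaving out the array that stood apart, the adult groups alone, and that array with the slide were alternatives added after the data were seen. Some genes are not reported here.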

Additional observations from a re-analysis of the deposited data

How the results depend on the processing

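Over 26 alternatives the adult colon median of the 28 genes stayed below 0, from -0.35 to -0.18, and the number of genes called ran from 0 to 18, against 4. It was 18 with every array its own observation, which counts dye swaps as independent, 1 with the scanner's processed signals, and 0 with median centring, each group fitted alone and the deposited series table; the causes were not tested beyond these constructions. Leaving out 1 replicate gave 0 to 7, the lowest without adult colon replicate 1 or 2 or either fetal colon replicate. No called gene changed sign under any alternative. Cald1, Casq2, Pgm5 and Pln passed in 11 of 26, 13 of 25, 14 of 26 and 13 of 25 alternatives, with adjusted p of 0.0248 to 0.663, 0.00292 to 0.496, 0.00183 to 0.802 and 0.00134 to 0.385. The adult small intestine median was -0.12 with the scanner's processed signals, -0.17 with median centring, and -0.095 to -0.054 with 1 replicate left out. The fetal colon median was -0.059 with median centring. For the KO effect in adult minus fetal colon, 7 genes were called with every array its own observation. For the mean of the 4 groups, leaving out 1 replicate gave 0 to 1.

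With the replicate number as a block, 3 genes were called in adult colon, 2 for the KO effect in adult minus fetal colon and 0 for wild type adult minus fetal colon, and the adult small intestine median was -0.0084. The labels give only shared numbers: deviations of pools with the same number correlated at -0.074 to 0.16 across genes, and those with other numbers at -0.16 to 0.16.

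For wild type adult colon minus adult small intestine, where the fit of all libraries called none, calls numbered 2 with processed signals, median centring, the mean of all probes, a trended and robust prior, or fetal small intestine pairs 1 and 2 separate, 1 with a strict filter, 4 with 75th percentile scaling, 9 with every array its own observation, and 11 with each group fitted alone, the adult groups only, or without the mismatched slide. They numbered 3 without the array that stood apart and 25 without both; leaving out 1 replicate gave 0 to 2. The median was 1.30 with a strict filter and 1.21 with slide as a random block. For wild type fetal colon minus small intestine, calls were 1 and 21, and the median 1.33 and 1.33, without the slide and without both. For wild type adult minus fetal colon they were 3 with processed signals or without the array, 2 with median centring, the mean of all probes, every array its own observation or pairs 1 and 2 separate, 0 with slide as a random block or each group alone, and 10 without both, with 0 to 3 when 1 replicate was left out. For wild type adult minus fetal small intestine they were 4 with every array its own observation, 4 without both, and 0 to 1 with 1 replicate left out. With 9 replicates and signals near background for Casq2 and Pln, small differences in those genes are the least secure.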
